A study of Mus musculus with 4 samples.

Results

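The genes described here are sensors of foreign nucleic acid and their adaptors in mouse CD4+ T cells: the cytosolic RNA helicases Ifih1, Dhx58 and Ddx60 with the adaptor Mavs, and the endosomal Toll-like receptors Tlr3, Tlr7 and Tlr9 with the adaptor Myd88. They were chosen by name, with earlier results of these data known. Each was represented by the row of the array that the platform annotation gives to that gene alone. All 8 had such a row, 1 each, among 19752 genes with a row of their own. Splenic CD4+ T cells of male C57BL/6 mice (6 weeks of age) were enriched by negative selection, then stimulated through CD3 and CD28 with beads over 48 h. The groups were bead-activated cells with no added cytokine (baseline, 2 arrays), the same kind of cells after 2 h with interferon alpha (IFNa) at 100 U/ml (1 array), and cells after 8 h with it (1 array). All groups share the bead activation, and a label of both IFNa samples also mentions JAK inhibitors with a plus or minus sign, while their cytokine label names IFNa alone. RNA was hybridised to Affymetrix Mouse Gene 1.0 ST arrays, and the labels do not say whether the baseline arrays came from separate mice or cultures.

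Cells detect viral RNA in different compartments. In the cytosol, RIG-I and MDA5 (the product of Ifih1) bind viral RNA with their helicase domains and signal through MAVS on the mitochondrial surface, and LGP2 (the product of Dhx58), which lacks their signalling domains, modulates them. In endosomes, TLR3 binds double-stranded RNA, TLR7 binds single-stranded RNA and TLR9 binds unmethylated CpG DNA. TLR7 and TLR9 signal through MyD88, and TLR3 through TICAM1. Many of these genes are themselves induced by type I interferon, through a promoter element called the ISRE, and in mice TLR7 and TLR9 are best known from B cells and dendritic cells.

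The promoter windows of 4 members are shown because they set members with an ISRE-like sequence beside one without. A RefSeq window of 300 bases (250 before the transcript start and 50 after it, GRCm38.p6) was at hand for 6 of the 8 members and was read for Ifih1, Ddx60, Mavs, Tlr3, Tlr9 and Myd88. Capitals mark each pair of GAAA blocks with any 2 bases between them, the core of the ISRE, searched on both strands. The windows of Ifih1 (chr2:62646206-62646505, reverse strand), Ddx60 (chr8:61927837-61928136, forward strand), Myd88 (chr9:119339969-119340268, reverse strand) and Mavs (chr2:131233813-131234112, forward strand) read 5′ to 3′ as follows.
Ifih1: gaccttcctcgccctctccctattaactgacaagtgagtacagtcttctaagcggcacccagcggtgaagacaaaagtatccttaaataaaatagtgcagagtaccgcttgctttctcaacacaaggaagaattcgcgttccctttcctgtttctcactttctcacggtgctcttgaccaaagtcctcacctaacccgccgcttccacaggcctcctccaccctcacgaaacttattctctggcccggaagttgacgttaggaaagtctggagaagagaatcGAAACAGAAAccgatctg
Ddx60: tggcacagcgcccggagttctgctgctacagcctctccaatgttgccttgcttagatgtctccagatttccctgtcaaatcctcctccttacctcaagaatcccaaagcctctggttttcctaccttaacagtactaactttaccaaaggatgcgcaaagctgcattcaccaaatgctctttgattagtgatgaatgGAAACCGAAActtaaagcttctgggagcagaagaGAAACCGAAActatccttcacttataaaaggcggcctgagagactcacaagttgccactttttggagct
Myd88: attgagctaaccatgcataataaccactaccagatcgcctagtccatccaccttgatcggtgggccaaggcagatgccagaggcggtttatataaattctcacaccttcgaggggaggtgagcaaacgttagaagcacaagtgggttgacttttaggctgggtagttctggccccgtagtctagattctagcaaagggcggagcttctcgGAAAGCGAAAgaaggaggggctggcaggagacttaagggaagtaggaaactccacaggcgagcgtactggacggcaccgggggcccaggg
Mavs: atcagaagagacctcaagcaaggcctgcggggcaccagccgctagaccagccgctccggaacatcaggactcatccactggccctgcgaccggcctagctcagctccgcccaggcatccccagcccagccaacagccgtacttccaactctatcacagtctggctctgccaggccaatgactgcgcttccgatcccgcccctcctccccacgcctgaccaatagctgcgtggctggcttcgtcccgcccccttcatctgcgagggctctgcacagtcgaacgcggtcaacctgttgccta

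This pair of blocks occurred in 3 of the 6 windows. Ddx60 held it 2 times, at bases 53 to 44 and 19 to 10 before the start, with the same 10 letters each time (GAAACCGAAA). Myd88 held it at bases 40 to 31 before the start (GAAAGCGAAA). In Ifih1 it lay within the transcribed part, at bases 33 to 42 (GAAACAGAAA). The windows of Mavs, Tlr3 and Tlr9 did not hold it. Of all 32851 windows of this length 3.44% held the GAAA pair. Among the 137 windows of genes that rose at 2 h or 8 h the share was 24.1%, against 2.99% of the 10865 windows of tested genes. A second pattern, TTCNNNGAA with N for any base, was also searched and is not marked above. Among the members only Myd88 held it, at bases 46 to 38 before the start, overlapping its GAAA pair. It occurred in 11.7% of windows of genes that rose and 6.83% of windows of tested genes. The genes that rose were called in these same data and include Ifih1 and Ddx60, and the shares were not compared by a test. A match describes these letters in this window and is not a measured binding site.

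The deposited intensities ran from 10.3 to 27543, and array medians on the log2 scale lay between 7.46 and 7.64. The baseline arrays correlated at 0.982 across 10699 tested genes, which are not independent replicates, and 41 of these genes differed at least 2-fold between them. Genes brighter than the median row of at least 1 array were tested with limma and Benjamini-Hochberg adjustment over all tested genes at an adjusted p under 0.05, two-sided. With 1 array at each IFNa time, the spread was estimated from the baseline pair, the lone arrays were assumed to vary like them, and p-values measure only that spread, which may be technical. Standard errors (SE) and 95% intervals below are the moderated ones of that model. Across tested genes as a whole, the median log2 difference from baseline was 0.06 for 2 h and −0.16 for 8 h. Quantile normalization gave medians of −0.01 for 2 h and 0.00 for 8 h, and centring each array gave 0.15 for 2 h and −0.24 for 8 h.

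Ifih1, Dhx58, Ddx60, Mavs, Tlr9, Tlr7 and Myd88 passed the filter on dim genes. Ddx60 and Tlr7 did so only on the IFNa arrays, so a count over the members that passed favours a difference. Tlr3 lay under the median on all 4 arrays and was not tested. The comparisons of 2 h and of 8 h with baseline share both baseline arrays, and no untreated cells kept for the same hours were analysed here. Effects of IFNa and of the hours in culture cannot be told apart. In such bulk samples a changed share of cells that carry a transcript and a changed amount per cell cannot be told apart either.

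The cytosolic RNA helicases rose at both times while their adaptor did not pass the test. Ifih1, the sensor of long double-stranded RNA, had log2 intensities of 7.83 and 8.05 in baseline cells, 10.37 after 2 h of IFNa and 9.57 after 8 h. Both IFNa arrays lay above both baseline arrays, and the 2 h array was the highest. The difference from baseline was 2.43 at 2 h (SE 0.21, 95% interval 1.94 to 2.91, adjusted p = 0.00118), a 5.38-fold rise and the 14th largest of 10699 tested genes. At 8 h it was 1.62 (SE 0.21, adjusted p = 0.00797).

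Dhx58, the regulator of MDA5 and RIG-I, had 8.04 and 8.24 in baseline cells, 10.56 after 2 h of IFNa and 10.85 after 8 h. It too stood clear of the baseline arrays, and its highest value was the late one. The difference was 2.42 at 2 h (SE 0.21, adjusted p = 0.00118), a 5.34-fold rise. It was 2.71 at 8 h (SE 0.21, 95% interval 2.23 to 3.19, adjusted p = 0.00061), a 6.53-fold rise and the 13th largest there.

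Ddx60, an interferon-induced helicase that has been linked to RIG-I signalling, was dim before treatment. It had 6.33 and 6.23 in baseline cells, 8.24 after 2 h of IFNa and 8.18 after 8 h, and its baseline values lay at the 24.7th and 26.6th percentile of all rows. The IFNa arrays were nearly level with each other and both lay above the array median. The difference was 1.96 at 2 h (SE 0.20, adjusted p = 0.00285) and 1.90 at 8 h (SE 0.20, adjusted p = 0.00321). Tested with no filter on dim genes, it passed at both times as well (adjusted p = 0.00686 and 0.00747).

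Mavs, the mitochondrial adaptor of RIG-I and MDA5, had 9.59 and 10.24 in baseline cells, 9.92 after 2 h of IFNa and 9.58 after 8 h. The 2 h value lay between the baseline arrays, and the 8 h value lay just under the lower of them. The difference was 0.01 at 2 h (SE 0.28, 95% interval −0.63 to 0.64, adjusted p = 0.993) and −0.33 at 8 h (SE 0.28, −0.97 to 0.31, adjusted p = 0.486). The baseline arrays themselves were 0.65 apart, so changes of the size of that gap were not detectable.

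**Figure D1:**
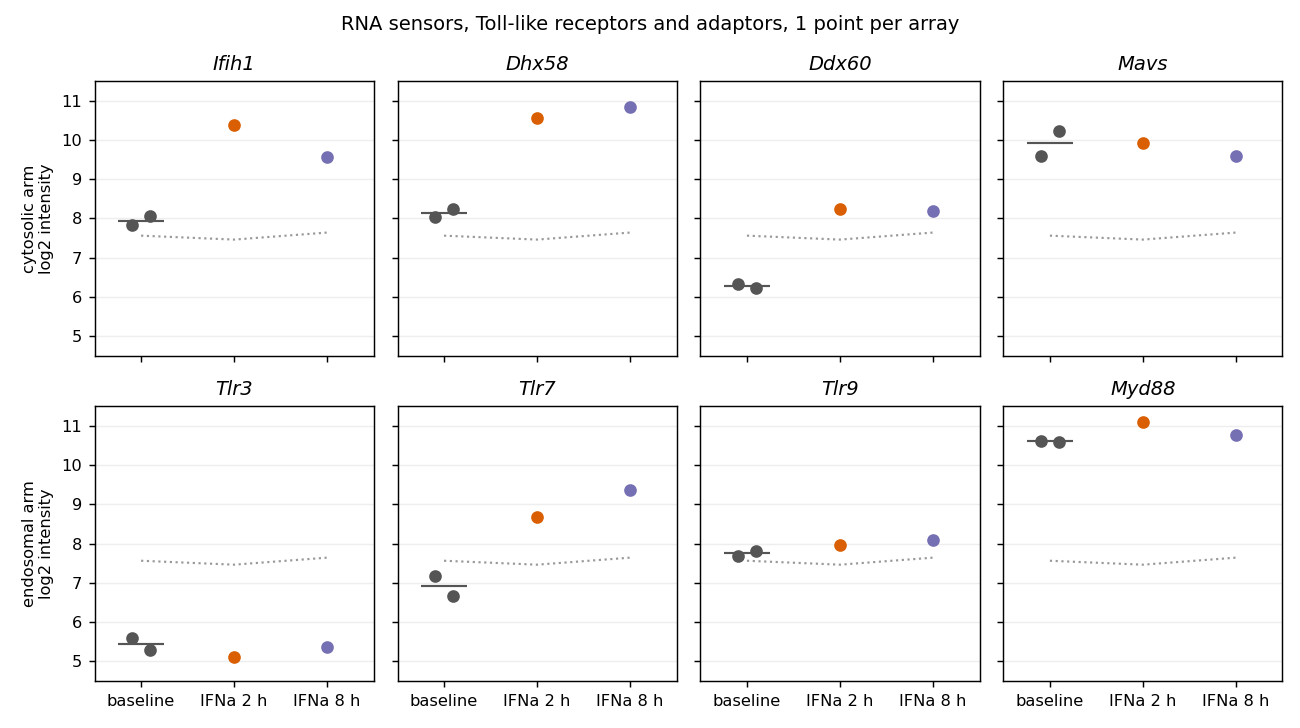
Log2 intensity (vertical axis) of each of the 8 genes on the baseline arrays (grey, n = 2, with their mean as a line), the 2 h array (orange) and the 8 h array (purple), 1 point per array. The dotted line joins the array medians of all rows. Ifih1, Dhx58, Ddx60 and Tlr7 stand above their baseline points at both times, Tlr3 lies under the dotted line throughout, and the 2 h value of Mavs falls between its baseline points.

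Among the endosomal receptors the results differed from gene to gene. Tlr7, the receptor for single-stranded RNA, had 7.17 and 6.65 in baseline cells, 8.67 after 2 h of IFNa and 9.36 after 8 h. Each IFNa array lay above both baseline arrays, and the late array was the highest. The difference was 1.76 at 2 h (SE 0.25, 95% interval 1.18 to 2.34, adjusted p = 0.0155), a 3.39-fold rise. At 8 h it was 2.45 (SE 0.25, 95% interval 1.87 to 3.03, adjusted p = 0.00258), a 5.47-fold rise and the 14th largest of the tested genes at that time. Its baseline arrays lay 0.52 apart, and against the nearer of them alone the differences were 1.50 and 2.19. With no filter on dim genes Tlr7 again passed at 2 h (adjusted p = 0.0339) and 8 h (adjusted p = 0.00603).

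Tlr9, the receptor for CpG DNA, had 7.68 and 7.82 in baseline cells, 7.96 after 2 h of IFNa and 8.08 after 8 h, just above the array medians. The IFNa arrays exceeded the higher baseline array by 0.15 and 0.26, and the baseline arrays were 0.14 apart. The difference was 0.21 at 2 h (SE 0.20, 95% interval −0.25 to 0.68, adjusted p = 0.69) and 0.33 at 8 h (SE 0.20, −0.14 to 0.80, adjusted p = 0.341). Neither passed, and the difference between Tlr9 and Tlr7 was not tested. Tlr3, the receptor for double-stranded RNA, had 5.59 and 5.29 in baseline cells, 5.10 after 2 h of IFNa and 5.35 after 8 h, at the 9.63th to 12.4th percentile of all rows. Its values overlapped between baseline and 8 h, and tested with no filter its adjusted p was 0.754 at 2 h (difference −0.34) and 0.86 at 8 h (difference −0.09). At this signal a small difference was not detectable.

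Myd88, the adaptor of TLR7 and TLR9, had 10.62 and 10.59 in baseline cells, 11.09 after 2 h of IFNa and 10.77 after 8 h. The IFNa arrays lay above both baseline arrays, which were only 0.03 apart. The difference was 0.49 at 2 h (SE 0.20, 95% interval 0.03 to 0.95, adjusted p = 0.391) and 0.17 at 8 h (SE 0.20, −0.29 to 0.63, adjusted p = 0.628). Neither passed over all tested genes. Its window and that of Ddx60, shown above, both hold the ISRE-like sequence before the start, while of these genes only Ddx60 passed the test.

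In all, 4 of the 8 genes rose at 2 h (Ifih1, Dhx58, Ddx60, Tlr7) and these 4 rose at 8 h, and none fell at either time. The members were chosen with earlier results of these data known, so their count beside the shares below is not separate evidence. Over all tested genes 1.09% rose and 0.00935% fell at 2 h, and 0.654% rose and 3.35% fell at 8 h. Each of these 4 was also at least 2-fold higher than baseline at both times and no member was 2-fold lower, where 1.77% of tested genes were at least that much higher and 0.0654% lower at 2 h, and 0.570% higher and 2.60% lower at 8 h. Testing all rows of the array together, named or not, ended these calls, with the lowest adjusted p at 0.229 at 2 h and 0.153 at 8 h. By arm, 3 of 4 cytosolic and 1 of 4 endosomal genes rose at both times, where the endosomal 4 include Tlr3, which was not tested. Over the 3 tested endosomal genes the median was 0.49 at 2 h and 0.33 at 8 h. Over all members of an arm, tested or not, the cytosolic median was 2.19 at 2 h and 1.76 at 8 h, and the endosomal median was 0.35 and 0.25. The same median over all 19752 genes with a row was −0.07 and 0.04. Both adaptors were outside the set that rose, and the difference between the arms was not tested. An IFNa array above both baseline arrays was common, at 44.5% of tested genes at 2 h and 24.4% at 8 h, so the position of Tlr9 and Myd88 alone is close to the background. At 8 h 55.9% of tested genes lay below both baseline arrays, as Mavs did.

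**Figure D2:**
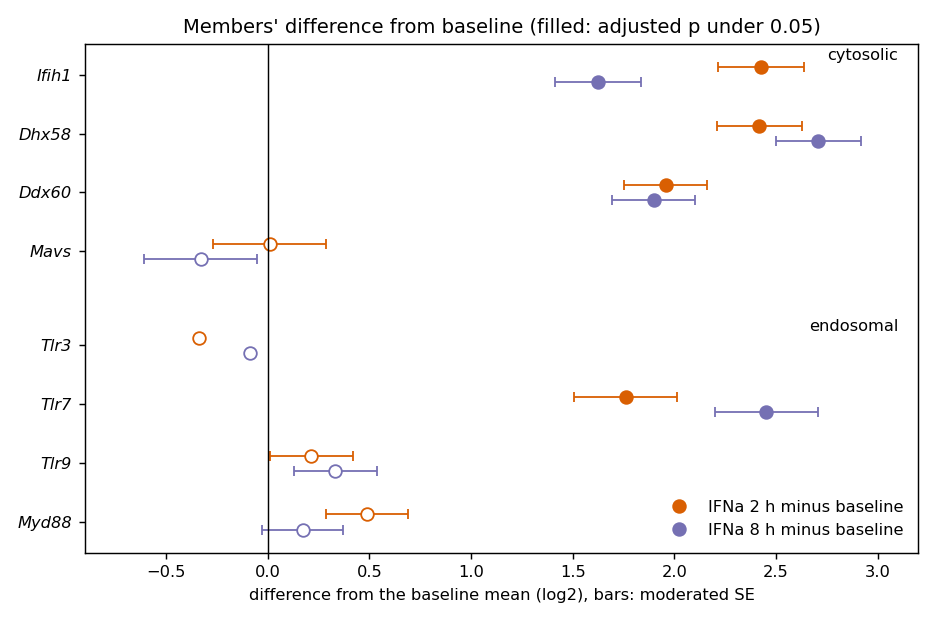
Difference from the baseline mean on the log2 scale (horizontal axis) for each gene at 2 h (orange) and 8 h (purple), with the moderated SE as bars (1 array against 2). Filled points passed an adjusted p under 0.05. Tlr3 was not tested and has no bar. Differences of the 4 genes that passed run from 1.62 to 2.71, and those of Mavs, Tlr9 and Myd88 from −0.33 to 0.49.

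The comparison of 8 h with 2 h asks whether the early and late levels differ. None of the 7 tested members passed in it, while 1.46% of tested genes rose and 10.8% fell. No member differed 2-fold there, where 0.748% of tested genes were at least that much higher and 8.65% lower. Ifih1 stood at 9.57 at 8 h, against 10.37 at 2 h, a difference of −0.80 (SE 0.24, 95% interval −1.36 to −0.24, adjusted p = 0.0615). With arrays centred on their medians it passed (−0.98, SE 0.34, adjusted p = 0.0222). That setting also changed the prior of the spread estimate, from 7.46 to infinite degrees of freedom. The part of scaling and of the prior in this call was not tested. Tlr7 stood at 9.36 at 8 h, against 8.67 at 2 h, a difference of 0.69 (SE 0.29, 95% interval 0.02 to 1.36, adjusted p = 0.129). It passed after quantile normalization (1.05, adjusted p = 0.002).

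The remaining tested members had smaller differences between the 2 times. Dhx58 stood at 0.29 for 8 h minus 2 h (SE 0.24, adjusted p = 0.41), Ddx60 at −0.06 (SE 0.23, adjusted p = 0.882), Mavs at −0.34 (SE 0.32, adjusted p = 0.467), Tlr9 at 0.12 (SE 0.24, adjusted p = 0.75) and Myd88 at −0.32 (SE 0.23, adjusted p = 0.349). With 1 array at each time this comparison has no replicate of its own. For each of the 4 genes that rose, both IFNa levels thus stood above baseline, and the order of the 2 h and 8 h levels was not settled by the test.

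**Figure D3:**
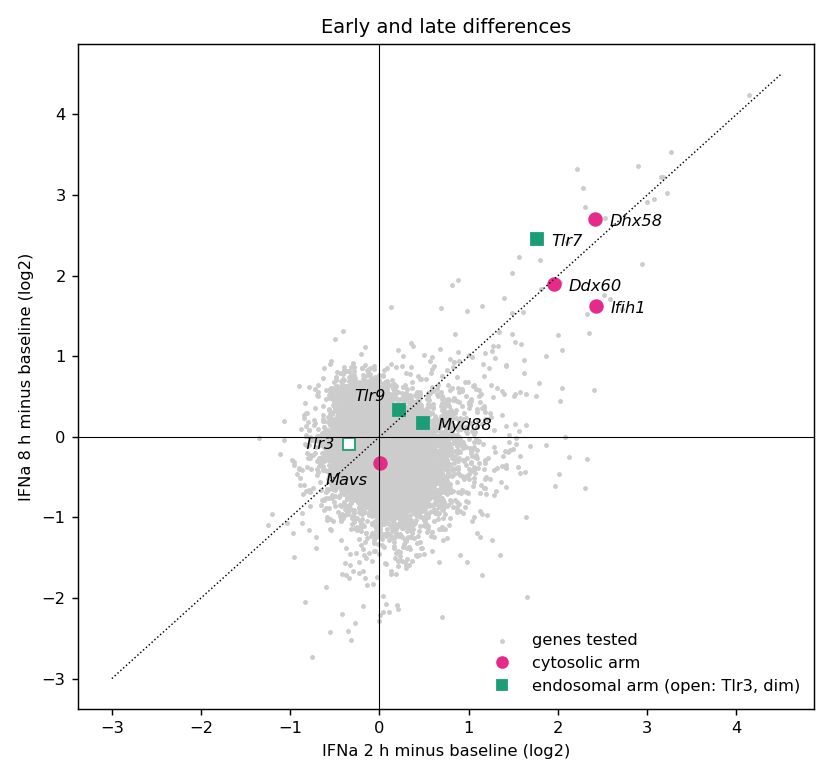
Difference from baseline at 8 h (vertical axis, log2) against that at 2 h (horizontal axis, log2) for all 10699 tested genes (grey), the cytosolic arm (circles) and the endosomal arm (squares, with Tlr3, not tested, open). The dotted diagonal marks equal differences. Both axes share the baseline arrays. Ifih1 lies under the diagonal (2.43 at 2 h, 1.62 at 8 h), Tlr7 over it (1.76 at 2 h, 2.45 at 8 h) and Ddx60 almost on it.

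For the members with at least a 2-fold difference, the genes of most similar pattern were found as the 3 tested genes at the smallest Euclidean distance in the pair of differences from baseline at 2 h and 8 h, which rest on the same 4 arrays. Nearest to Ifih1 were Eif2ak2, the RNA-activated kinase PKR (distance 0.14 in log2 units, with differences of 2.33 at 2 h and 1.52 at 8 h), Cmpk2 (0.16) and the GTPase Mx1 (0.18). Nearest to Dhx58 were Xaf1 (0.10), Phf11c (0.19) and Ifi213 (0.40). Nearest to Ddx60 were Rnf213 (0.07), Slfn8 (0.16) and Trim30d (0.33). Nearest to Tlr7 were Trim30d (0.26) and the oligoadenylate synthetases Oas2 (0.30) and Oas3 (0.34). Of these 11 genes 9 had a promoter window, and 5 of those held the GAAA pair. Among windows of genes that rose the share was 24.1%, and among windows of tested genes 2.99%. These 11 genes were picked for rising like the members, so their count is not separate evidence.

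Some of the other genes of the RIG-I-like receptor pathway were called. Of 21 tested, 2 rose and none fell at 2 h, with a median of 0.35. At 8 h 2 rose and 2 fell, with a median of −0.02 that became 0.16 after quantile normalization. Over all tested genes 1.09% rose and 0.00935% fell at 2 h, and 0.654% rose and 3.35% fell at 8 h. Ddx58, which encodes RIG-I, rose by 1.33 at 2 h (SE 0.20, adjusted p = 0.0183) and 1.12 at 8 h (SE 0.20, adjusted p = 0.0258). Trim25, a ubiquitin ligase that activates RIG-I, rose by 1.52 (SE 0.20, adjusted p = 0.0105) and 1.18 (SE 0.20, adjusted p = 0.0227). The genes that fell at 8 h encode mitochondrial outer membrane proteins linked to MAVS, the fusion GTPase Mfn1 (−0.98, SE 0.21, adjusted p = 0.041) and the import receptor Tomm70a (−0.95, SE 0.21, adjusted p = 0.0479). With no filter on dim genes no gene of this list was called at 8 h (adjusted p = 0.0507 for Trim25, 0.0571 for Ddx58, 0.0892 for Mfn1 and 0.102 for Tomm70a). At 8 h against 2 h 4 of the 21 fell, where 10.8% of all tested genes did, namely Tomm70a (−1.39, SE 0.24, adjusted p = 0.0172), Mfn1 (−1.06, adjusted p = 0.031), Traf2 (−1.05, adjusted p = 0.0371) and Tnfaip3 (−0.87, adjusted p = 0.0472), and with no filter only Tomm70a did (adjusted p = 0.0377).

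Of 18 tested genes of the endosomal Toll-like receptor pathway 1 rose at each time and none fell. It was Irf7, a transcription factor downstream of MyD88, which rose by 3.15 at 2 h (SE 0.25, adjusted p = 0.000902) and 3.23 at 8 h (SE 0.25, adjusted p = 0.000629). Irf7 was placed in this list by name and counted in no other, so its rise is not particular to the endosomal pathway. Of all tested genes 1.09% rose at 2 h and 0.654% at 8 h. The list median was 0.21 at 2 h and −0.14 at 8 h, and the 8 h median was 0.04 after quantile normalization. That normalization called 3 of the list higher at 2 h, and 2 higher and 1 lower at 8 h, and centred arrays gave 2 higher at 2 h. At 8 h against 2 h the ubiquitin ligase Traf6 (−1.37, SE 0.28, adjusted p = 0.0239) and the protease Ctsl (−0.97, SE 0.23, adjusted p = 0.0361) fell, 2 of 18 where 10.8% of all tested genes fell, which is near the background. Neither was called with no filter on dim genes. The RNA receptors Tlr8 and Tlr13 were under the median on all arrays.

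No gene of the cell-surface Toll-like receptor list or of the cytosolic DNA and Z-form list was called against baseline. For lists this short that is near the background. Over all tested genes 1.09% rose and 0.00935% fell at 2 h, and 0.654% rose and 3.35% fell at 8 h. Among 6 tested cell-surface Toll-like receptors and adaptors the median was 0.00 at 2 h and 0.06 at 8 h (−0.02 with centred arrays). The largest values were those of Tlr6 (0.52, SE 0.20) and Ticam2 (0.30, SE 0.21) at 2 h, and of Ly96, the partner of TLR4 (0.84, SE 0.23, adjusted p = 0.0825), and Tlr2 (0.32, SE 0.20) at 8 h. After quantile normalization 1 gene of this list passed at 8 h. Among 6 tested genes of cytosolic DNA and Z-form sensing the median was 0.44 at 2 h and 0.02 at 8 h (−0.06 with centred arrays), with Cgas at 0.68 (SE 0.22) and Zbp1 at 0.64 (SE 0.20) at 2 h. At 8 h the largest were Zbp1 (0.60, SE 0.20, adjusted p = 0.129) and Aim2 (0.38, SE 0.29). After quantile normalization 1 gene of this list passed at each time.

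Among 10 further RNA helicases and binders of double-stranded RNA, Eif2ak2 rose at 2 h (2.33, SE 0.20, adjusted p = 0.00118) and at 8 h (1.52, SE 0.20, adjusted p = 0.00824). Adar, which edits double-stranded RNA, rose at 2 h (1.23, SE 0.22, adjusted p = 0.0451) and stood at 0.85 at 8 h (SE 0.22, adjusted p = 0.0725). With no filter its adjusted p at 2 h was 0.097. Of all tested genes 1.09% rose at 2 h and 0.654% at 8 h. The median of this list was 0.33 at 2 h and −0.42 at 8 h, and after quantile normalization 0.21 at 2 h and −0.21 at 8 h. None of the list fell at 8 h, while quantile normalization called 1 lower there, with 2 higher, and centred arrays 2 lower. At 8 h against 2 h 4 of the 10 fell, where 10.8% of all tested genes did: Ddx3x (−1.34, SE 0.26, adjusted p = 0.0214), Dhx33 (−1.19, SE 0.24, adjusted p = 0.0234), Ddx21 (−1.09, SE 0.23, adjusted p = 0.028) and Dhx15 (−0.99, SE 0.24, adjusted p = 0.0366). With no filter on dim genes only Ddx3x fell there (adjusted p = 0.0461).

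**Figure D4:**
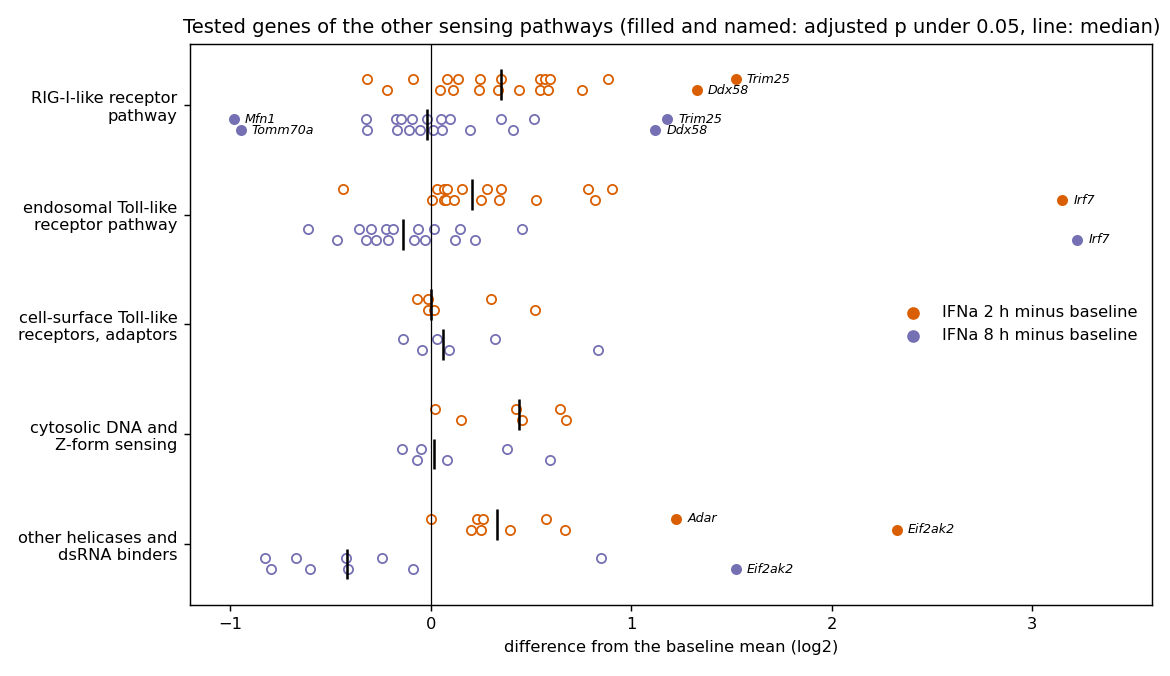
Difference from baseline (horizontal axis, log2) of the tested genes of 5 other sensing lists at 2 h (orange) and 8 h (purple). Each point is a gene, filled and named where the adjusted p was under 0.05, and the black line is the list's median. Irf7 stands farthest out at both times (3.15 and 3.23), and only Mfn1 and Tomm70a are called lower.

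The T cell label was checked against markers, and other cell types that use TLR7 and TLR9 were measured on the same arrays. All 6 T cell markers with a row (Cd3d, Cd3e, Cd3g, Cd4, Cd5, Thy1) lay above the median on every array. Their summed intensity was 28364 and 31859 in baseline cells, 29741 after 2 h and 34740 after 8 h. Of 5 B cell markers with a row 4 lay above the median on every array, with a summed intensity of 2309 and 2304 in baseline cells, 2220 after 2 h and 2878 after 8 h. Ms4a1, which encodes CD20, had 9.17 and 8.93 in baseline cells, 9.09 after 2 h of IFNa and 9.81 after 8 h (difference 0.75 at 8 h, SE 0.21, adjusted p = 0.0882). It had the largest difference of its list at 8 h, where Blnk, under the median on all arrays, stood at 0.50, Cd79b at 0.18, Cd79a at 0.17 and Cd22 at −0.10.

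Of 5 markers of plasmacytoid dendritic cells with a row, 3 or 4 lay above the median, with a summed intensity of 1519 and 1428 in baseline cells, 1390 after 2 h and 1626 after 8 h. Siglech, a defining marker of them, lay under it on all arrays. Of 10 markers of conventional dendritic cells, monocytes and macrophages only Lyz2 lay above the median, and their sum ranged from 910 to 1262. The 2 CD8 T cell markers summed to 1112 and 1001 in baseline cells, 921 after 2 h and 1191 after 8 h. Cd8b1 lay above the median on every array, with 9.78 and 9.68 in baseline cells, 9.57 after 2 h and 9.87 after 8 h. Cd8a lay above it only on the first baseline array and the 8 h array. The 3 NK cell markers summed to 384 and 360 in baseline cells, 430 after 2 h and 307 after 8 h, and of them only Eomes lay above the median, on every array. No marker was called in any comparison. After quantile normalization, against baseline, 1 B cell and 1 plasmacytoid marker were called higher at 8 h and Lyz2 lower at 2 h. The summed T cell, CD8 T cell, B cell and plasmacytoid markers were highest on the 8 h array. The CD8 T cell, B cell and plasmacytoid sums were lowest on the 2 h array. So was the sum for conventional dendritic cells, monocytes and macrophages. The NK cell sum was highest on the 2 h array and lowest on the 8 h array. The single plasmacytoid differences at 2 h ran from −0.42 for Cox6a2 to 0.41 for Tcf4. Single plasmacytoid markers went both ways at 8 h, from −0.39 for Tcf4 and −0.11 for Ccr9 to 0.09 for Spib, 0.42 for Siglech and 0.50 for Cox6a2. The part of these cell types in the result for Tlr7 was not tested.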

How the data were processed

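RNA from bead-activated mouse splenic CD4+ T cells was measured on 4 arrays. Linear intensity values were deposited by the authors. The submitters' processing notes name RMA and Affymetrix Power Tools, without versions. RMA corrects background, equalises arrays and summarises probes, yet the quartiles of the deposited values differed between arrays. The sources used here do not say which arrays were processed jointly. Log2 of the deposited intensity was taken with no pseudocount. Of 24922 rows, 21425 had 1 gene symbol in the platform annotation, 1399 several and 2098 none. For a gene with several rows, the brightest on average was kept. Genes brighter than the median row of at least 1 array were tested (10699).

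Samples were grouped by their titles. Limma 3.58.1 in R 4.3.3 fitted a mean per group, with empirical Bayes moderation (1 residual degree of freedom, prior of 7.46 and an SD of 0.175) and Benjamini-Hochberg adjustment over all tested genes. The number of arrays limits the precision. The scripts were tested on simulated data. Members and gene lists were chosen with earlier results of these data known. All members are named, with up to 4 called genes per list and comparison, or the 2 largest where none was called. Alternatives were quantile normalization, centred arrays, no filter or a stricter one, an intensity trend, a robust prior, the mean of a gene's rows, a fit on all rows, and leaving out either baseline array. Sequences are from RefSeq (GRCm38.p6).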

Additional observations from a re-analysis of the deposited data

How the results depend on the processing

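The rises of Ifih1, Dhx58, Ddx60 and Tlr7 at both times kept their direction under quantile normalization, centring and loss of either baseline array. The other alternatives change the set of tested genes or the spread, or average the rows of a gene. Each member had 1 row, so its difference could not move there and its direction was fixed in advance. The rises passed under each alternative with a test but 1, with highest adjusted p of 0.0339 at 2 h and 0.0183 at 8 h. The exception was testing all 24922 rows, where limma called 0 members and 0 rows in each comparison (1141 rows at 2 h, 2883 at 8 h and 4971 for 8 h against 2 h at an unadjusted p under 0.05). There the prior fell to 3.51 degrees of freedom, and adjusted p ran from 0.229 to 0.502 for these genes at 2 h and from 0.153 to 0.287 at 8 h. From 7.46 in the main fit the prior rose to 34.8 after quantile normalization and became infinite with centred arrays. In those settings adjusted p of these genes were far lower. Without one baseline replicate or the other, a value with no test, the count of members at least 2-fold higher was 4 at each time and of those lower 0, Tlr7 ranged from 1.50 to 2.02 at 2 h and from 2.19 to 2.71 at 8 h, and Mavs from −0.32 to 0.33 at 2 h. Among members not called, signs turned after quantile normalization for Mavs at 2 h (−0.147), and for Ddx60 (0.122) and Mavs (0.074) at 8 h against 2 h, and with centred arrays for Tlr9 there (−0.061). At 8 h against 2 h quantile normalization called 1 member higher (Tlr7) and centring 1 lower (Ifih1). The cause was not tested.

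Counts over all genes moved more. At 2 h they were 117 higher and 1 lower, against 332 and 109 after quantile normalization, 291 and 7 with centred arrays, 0 lower with no filter on dim genes and 3 lower with an intensity trend. At 8 h they were 70 and 358, against 663 and 900 after quantile normalization, 724 lower with centred arrays, 42 and 101 with no filter, and 203 lower with the filter at the 60th percentile. At 8 h against 2 h they were 156 and 1155, against 990 higher after quantile normalization, 72 and 2315 with centred arrays, 20 and 395 with no filter, and 62 higher with the filter at the 60th percentile. Of the 193 other values computed for single members, 178 kept their sign and, where a test was run, their side of the threshold. Under the alternatives that cannot change a member's difference, its sign was fixed in advance. No paired analysis was possible because the groups share only replicate number 1.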
